A study of Mus musculus with 24 samples.

Results

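In the clonal B-lineage line Abl.1, 50 autosomal genes gave almost all of their allelic reads from a single parental allele, whereas the line Abl.2, of the same F1 background, gave reads from both. The genes were chosen on these very values. Allelic imbalance (AI) is the count in the maternal column divided by the sum of the maternal and paternal columns of a gene. A gene was taken as monoallelic in Abl.1 when the AI pooled over the 2 Abl.1 libraries was at most 0.1 or at least 0.9, and as biallelic in Abl.2 when the AI pooled over the 2 Abl.2 libraries lay from 0.3 to 0.7. Each gene needed 100 or more pooled counts in each clone, and chromosomes 4, 7, 10, 11 and 18 and symbols starting with Zfp, H2-, Rpl or Rps were left out. Of 37315 genes in the count table, 5647 met the limits on position, symbol and counts, and the 50 genes are 0.885% of these. The AI of these genes in the clones, and everything else that compares Abl.1 with Abl.2, is therefore a description. Where calls from a fit over all genes are printed for that contrast, they are not used as a test of these genes.

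RNA-seq of the clones comprised 2 libraries per clone, prepared with the SMARTseq v4 kit from 10 ng of total RNA, untreated and grown in culture medium. Both clones carry a 129S1/SvImJ x CAST/EiJ F1 genome, so that single nucleotide differences between the strains tell the alleles apart. Both were made by immortalisation of B-lineage cells with the Abelson virus oncogene, and each is a single line grown from 1 clone, so that a difference between them cannot be assigned to anything beyond these 2 lines. The 2 Abl.2 libraries were sequenced again on another day. That second run repeats the same libraries and is no further replicate. Left kidney RNA from 1 adult female F1 mouse of the same cross, labelled control, was made into 6 NEBNext libraries from 100 ng, 6 SMARTseq libraries from 10 ng and 6 SMARTseq libraries from 100 pg. Kidney took no part in choosing the genes. Replicates are separate libraries from 1 RNA preparation in kidney, and nothing says that the clone libraries came from separate cultures, so p-values measure the spread between libraries only.

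Total allelic counts were 19213150 to 22410835 per clone library and 6138693 to 6702351 per kidney library. Of 17 B-lineage marker genes, all 17 were above 0 in at least 1 library of each clone. Their summed level was 10825 to 11489 CPM (the count scaled to a common library total) in Abl.1, 12538 to 12597 in Abl.2 and 75.3 to 120 in kidney. Single markers differed between Abl.1 and Abl.2. Mean CPM was 0.0450 and 38.5 for Ikzf3, 4.11 and 498 for Il7r and 12.9 and 153 for Ikzf1. Higher in Abl.1 were, among others, Blnk (2000 and 1358), Vpreb1 (2635 and 2272) and Cd24a (416 and 255). The 12 kidney markers summed to 13.4 to 32.2 in the clones and to at least 20258 in kidney. Erythroid markers were at 0 in both clones, myeloid markers summed to 173 to 199 in Abl.1 and 299 to 309 in Abl.2, T cell markers to 12.3 to 16.6 and 4.02 to 5.15, and the 3 stromal markers to 86.1 to 108 in Abl.1 with 1 of them above 0, and to 0 in Abl.2. The part of these levels in the allelic values was not tested. The quality correction coefficient (QCC), the factor by which replicate AI values spread beyond binomial sampling, was 2.52 for Abl.1, 2.18 for Abl.2, and 1.85 ± 0.178, 1.47 ± 0.0126 and 2.59 ± 0.0540 (SD over 15 pairs of libraries) for the 3 kidney experiments in the order given above. Replicate 1 of the NEBNext libraries stood apart, with a QCC of 2.03 to 2.15 in its 5 pairs against 1.67 to 1.80 in the other 10. In kidney, 8 of 8 imprinted genes with nearly all reads in a single column had them in the column opposite to the parent known to express them, so maternal and paternal are used below only as the names of the columns.

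In most tissues both copies of an autosomal gene are transcribed. Imprinted genes read 1 copy by parent of origin, and genes such as those of antigen receptors and olfactory receptors read 1 copy chosen separately in each cell. A further group of autosomal genes shows random monoallelic expression, in which a clone of cells keeps the same active copy through many divisions and another clone of the same animal may use the other copy or both. In a tissue made of many clones such choices average out, whereas a sequence difference between the strains acts in every cell.

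The monoallelic genes of Abl.1 fell into 4 classes by their AI in Abl.2. Of 242 genes that were monoallelic in Abl.1 among those the rule could take, 152 were monoallelic for the same column in Abl.2, 6 for the opposite column, 34 lay between and 50 were biallelic, the set described here. In the reverse direction, 117 genes were monoallelic in Abl.2 and biallelic in Abl.1. Of the 50 genes, 36 kept the paternal column and 14 the maternal one, or 72.0% paternal. The share was 52.1% among the other 192 monoallelic genes of Abl.1 and 52.1% in the reverse set of 117. These shares were not tested, because several of the 36 genes lie side by side.

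The low allele was at or near 0 in 23 of the 50 genes, where it gave at most 1% of the Abl.1 reads. Of these, 20 kept the paternal column. They are Arl3, Cep19, Ddx19a, Fam98a, Gm16244, Hscb, Kars, Pak2, Pigx, Rbmxl1 and Rrad, which had 0 counts of the low allele, and Ncbp2, Tmem39a, Aaas, Rpp21, Arhgap10, Myg1, Traf5, B3glct and Fam151b. The 3 that kept the maternal column are Casd1, with 0 counts of the low allele, Abcc4 and Bphl. In 8 genes the low allele gave 1% to 5% of the reads. These are Bace1, Sp1, Fam160b1, Tspo, Chchd5, Nek3, Csnk1e and 2310022B05Rik. In the remaining 19 it gave 5% to 10%. Of those, Spast, 5830418P13Rik, Fbxo4, Bloc1s2, 5430403G16Rik, Ddx19b, Plscr4, Pou6f1, Lpxn, Actr1a, Gm2962, Tmem108 and Gsdme kept the paternal column and Gm20696, Camk2d, 2900026A02Rik, Camk1, Pigh and Yjefn3 the maternal one. Whether a low share of reads came from all cells or from a minority of cells cannot be told apart in bulk RNA, nor can fewer cells and less RNA per cell.

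**Figure D1:**
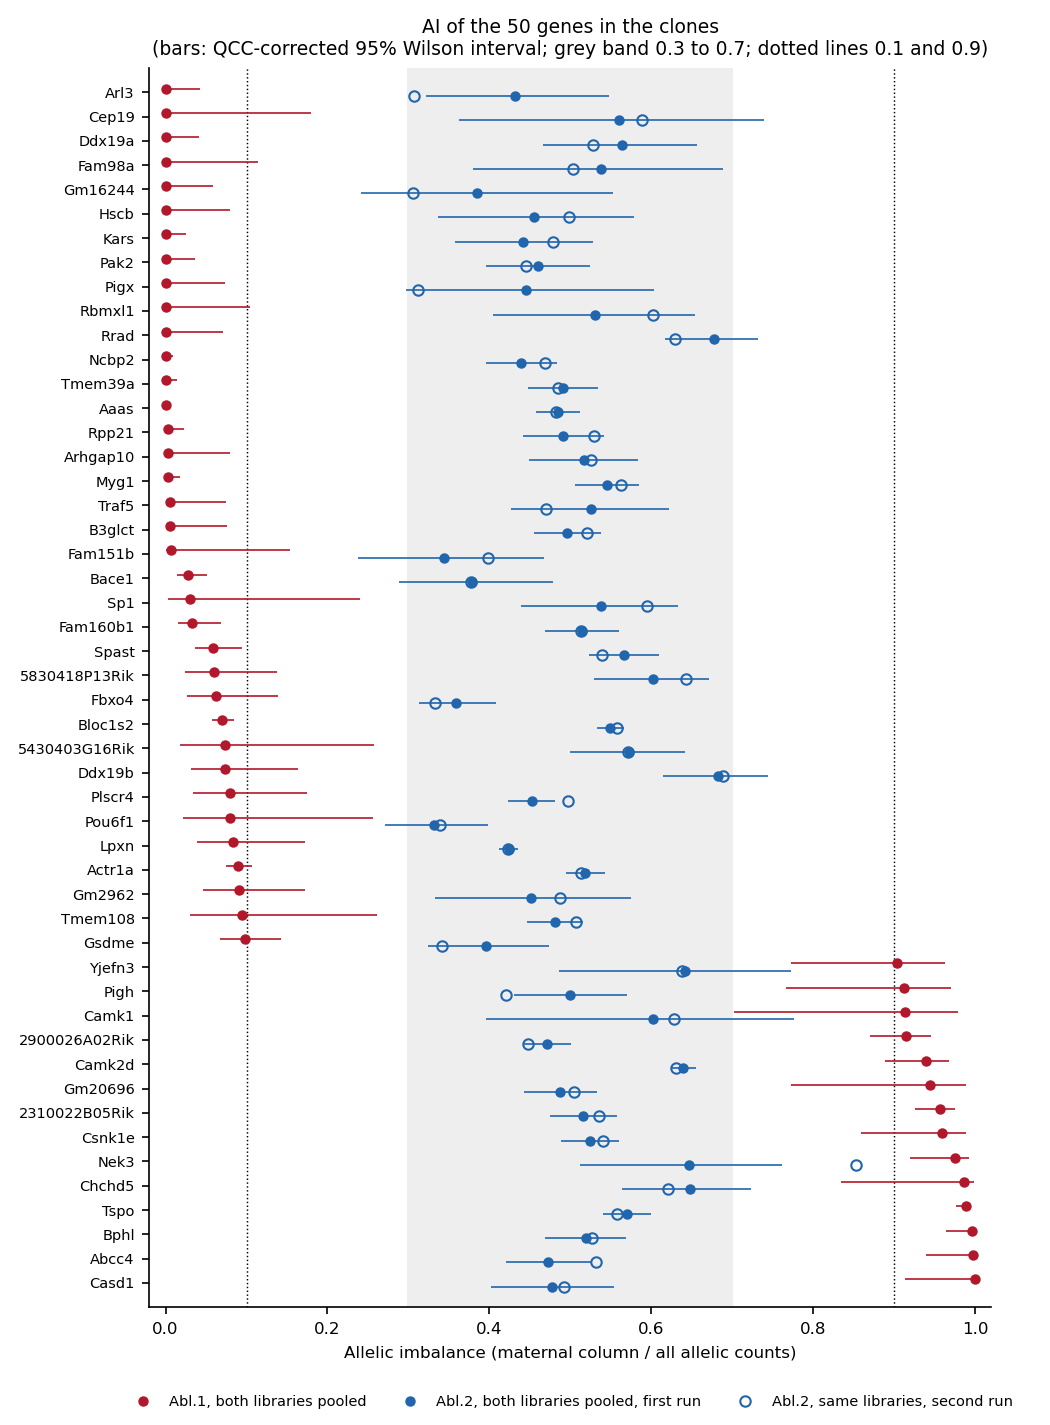
AI (maternal share of allelic counts, 0 to 1) of the 50 genes in Abl.1, Abl.2 and the second sequencing run of Abl.2, pooled over 2 libraries, with QCC-corrected 95% Wilson intervals as bars. Abl.1 values sit at most at 0.1 or at least at 0.9 by the rule, Abl.2 values lie between 0.331 and 0.683, and 1 gene of the second run, Nek3 at 0.853, lies outside 0.3 to 0.7.

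The clearest physical group was a run of 4 neighbouring genes on chromosome 16, chr16:31948513-32108069 (GRCm38), all silent in the maternal column in Abl.1. Ncbp2, the small subunit of the nuclear cap-binding complex, had 0 maternal and 1297 paternal counts in Abl.1 replicate 1 and 1 and 1669 in replicate 2. In Abl.2 it had 501 and 650 in replicate 1 and 536 and 673 in replicate 2. Both Abl.1 libraries were thus almost purely paternal and both Abl.2 libraries close to even, with pooled AI of 0.00034 and 0.439. Pak2, a p21-activated kinase, had 0 and 347 and then 0 and 312 counts in the Abl.1 libraries, and 283 and 302 and then 208 and 275 in Abl.2. Pigx, a subunit of the first mannosyltransferase of GPI anchor synthesis, had 0 and 163 and then 0 and 147 in Abl.1, and 32 and 55 and then 45 and 41 in Abl.2. Cep19, a protein of the centrosome, had 0 and 46 and then 0 and 66 in Abl.1, and 27 and 14 and then 34 and 34 in Abl.2. All 4 genes had no more than 1 maternal count over both Abl.1 libraries and maternal counts in each Abl.2 library. A count of 0 allows a maternal share of up to 0.455% for Pak2, 0.968% for Pigx and 2.68% for Cep19, counting error only. These limits take counts as independent, which the paper says is incorrect for SNPs that share a read. The QCC-corrected intervals, which take in the spread between libraries, were wider. They reached an AI of 0.0358 for Pak2, 0.0731 for Pigx and 0.179 for Cep19.

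The adjacent genes that met the count limit were biallelic in Abl.1. Dlg1, upstream, had an AI of 0.549 (95% interval 0.351 to 0.733) and Fbxo45, downstream, 0.522 (0.365 to 0.675). Bex6, next to Cep19, had an AI of 0 in Abl.1 but only 22 counts, and was not in the set. Farther out several genes leaned to the paternal column in Abl.1. Bdh1 and Xxylt1, beyond Dlg1, had 0.113 over 2052 counts and 0.144 over 973, and Tfrc, beyond Fbxo45, had 0.288 over 9827. In Abl.2 these 3 had 0.995, 0.524 and 0.517. No gene that met the count limit lay between the 4 members, and the run spans 159.6 kb. Ncbp2 and Cep19 lie on the plus strand and Pak2 and Pigx on the minus strand. Pigx and Cep19 start head to head, with annotated starts at 32099740 and 32099800, so their promoter windows overlap.

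A second run of 3 genes lay on chromosome 15, chr15:102331709-102436404, again silent in the maternal column. Myg1 gave 4 and 1017 maternal and paternal counts in Abl.1 replicate 1 and 3 and 1028 in replicate 2, against 733 and 628 and then 830 and 676 in Abl.2. Aaas, which encodes the nuclear pore protein ALADIN, gave 1 and 2124 and then 4 and 3194 in Abl.1, and 1438 and 1485 and then 1575 and 1719 in Abl.2. Sp1, a zinc-finger transcription factor that binds GC-rich promoters, gave 0 and 39 and then 3 and 59 in Abl.1, and 123 and 108 and then 126 and 106 in Abl.2. The pooled AI in Abl.1 was 0.00341 for Myg1, 0.00094 for Aaas and 0.0297 for Sp1, and the groups of libraries did not overlap in any of the 3, as the rule requires of pooled values. Pfdn5, whose last bases overlap the start of Myg1, was biallelic in Abl.1 with an AI of 0.513, as was Prr13 beyond Sp1 with 0.495. Espl1 and Itgb7, on the other side of Pfdn5, were intermediate with 0.215 and 0.276. Myg1 and Aaas lie tail to tail, with their ends at 102338139 and 102338252.

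A further group on chromosome 8, chr8:110974996-112011323, was interrupted. Ddx19a and Ddx19b encode closely related DEAD-box helicases of mRNA export, so reads may be split between them. Ddx19a had 0 and 168 and then 0 and 393 maternal and paternal counts in Abl.1, and 134 and 111 and then 136 and 98 in Abl.2. Ddx19b had 11 and 139 and then 19 and 240 in Abl.1, and 308 and 118 and then 329 and 178 in Abl.2. The low allele was thus absent from the counts of Ddx19a and, though present, left Ddx19b at an AI of 0.073. Aars, the alanyl-tRNA synthetase next to Ddx19b, lay just outside the limit of the rule, with an AI of 0.113 over 13420 counts in Abl.1 and 0.458 over 28403 in Abl.2. Kars, the lysyl-tRNA synthetase, had 0 and 289 and then 0 and 654 counts in Abl.1, and 135 and 166 and then 127 and 166 in Abl.2, and closes the group 1036.3 kb from its start. Between Ddx19b and Kars, Znrf1, Zfp1, Cfdp1, Gabarapl2 and Adat1 were biallelic in Abl.1 with AI of 0.576, 0.430, 0.459, 0.519 and 0.525. Wdr59, in the same interval, was below the count limit of the rule, with an AI of 0 (95% interval 0 to 0.208) over 93 counts in Abl.1 and 0.47 in Abl.2.

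Tmem39a, a membrane protein gene on chromosome 16 at chr16:38558698-38592162, differed from its neighbours in Abl.2 and not in Abl.1. It had 1 and 649 and then 0 and 1140 counts in Abl.1, and 533 and 648 and then 649 and 576 in Abl.2. In Abl.1 the AI was 0.014 for Timmdc1, 0.001 for Poglut1, 0.003 for Arhgap31 and 0.001 for B4galt4. In Abl.2 the same 4 genes had AI of 0.839, 0.989, 0.002 and 0.001, so that Tmem39a, at 0.491, lay between neighbours read from opposite columns.

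**Figure D2:**
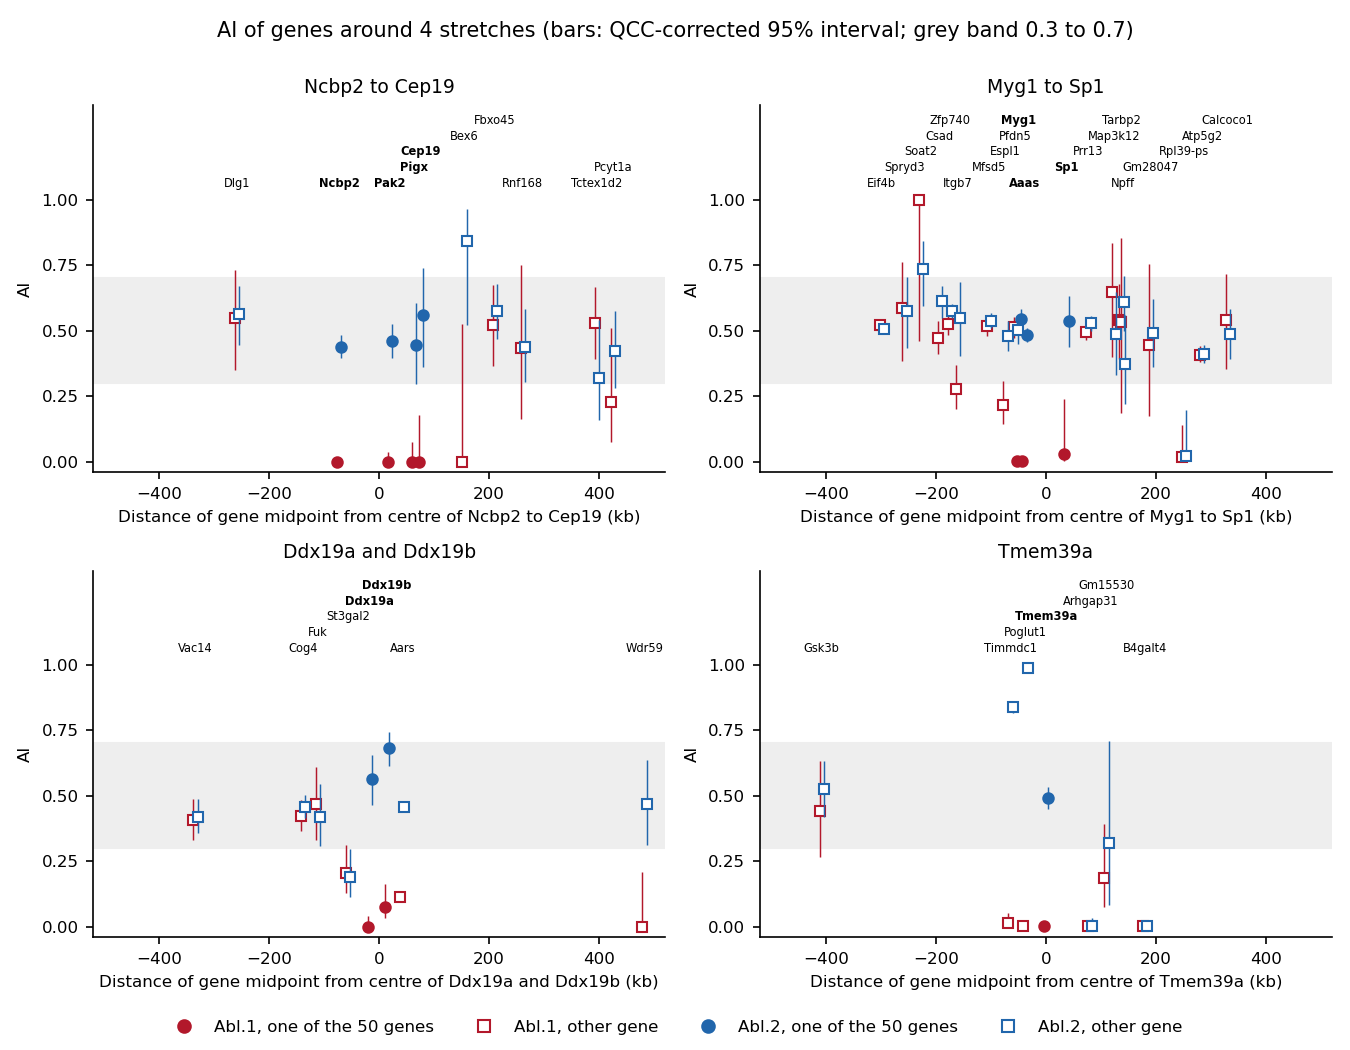
AI in Abl.1 and Abl.2 (0 to 1) of genes around 4 groups of members against distance from the group's centre in kb, with QCC-corrected 95% Wilson intervals as bars. In the panel of Ncbp2 to Cep19 the 4 members lie at an AI near 0 in Abl.1, while Dlg1 at 0.549 and Fbxo45 at 0.522 flank them.

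The promoters of genes in these groups are shown because a silent and an active copy of a gene often differ in the methylation of CpG sites. No methylation was measured here. The sequences are RefSeq's on GRCm38.p6, of the reference strain and not of the F1 parents, from 250 bases before to 50 bases after the start, 5′ to 3′ on the gene's strand, with CpG sites in capitals. Pigx (chr16:32099678-32099977, minus strand) and Cep19 (chr16:32099539-32099838, plus strand) show the shared head-to-head region, with 22 and 30 CpG sites. Myg1 (chr15:102331459-102331758, plus strand), Aaas (chr15:102350710-102351009, minus strand) and Sp1 (chr15:102406066-102406365, plus strand) hold 10, 27 and 19. Tmem39a (chr16:38558448-38558747, plus strand) holds 2 and shows the other extreme.
Pigx: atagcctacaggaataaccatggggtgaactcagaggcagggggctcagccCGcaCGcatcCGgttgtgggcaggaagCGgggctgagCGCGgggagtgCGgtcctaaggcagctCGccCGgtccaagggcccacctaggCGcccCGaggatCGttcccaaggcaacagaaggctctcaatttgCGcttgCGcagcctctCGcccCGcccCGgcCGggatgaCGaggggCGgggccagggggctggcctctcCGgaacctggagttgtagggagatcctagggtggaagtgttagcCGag
Cep19: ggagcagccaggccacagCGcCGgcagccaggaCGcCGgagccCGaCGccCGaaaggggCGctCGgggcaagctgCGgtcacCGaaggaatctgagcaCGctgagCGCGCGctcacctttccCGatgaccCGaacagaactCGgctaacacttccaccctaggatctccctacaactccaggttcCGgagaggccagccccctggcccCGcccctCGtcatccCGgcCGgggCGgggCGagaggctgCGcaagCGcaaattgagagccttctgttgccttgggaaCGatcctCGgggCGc
Myg1: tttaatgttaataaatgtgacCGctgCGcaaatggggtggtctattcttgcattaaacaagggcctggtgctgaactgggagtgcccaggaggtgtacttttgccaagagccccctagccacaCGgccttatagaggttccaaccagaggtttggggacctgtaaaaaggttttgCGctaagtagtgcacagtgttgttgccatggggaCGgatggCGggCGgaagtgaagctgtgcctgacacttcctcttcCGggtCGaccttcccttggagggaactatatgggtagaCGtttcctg
Aaas: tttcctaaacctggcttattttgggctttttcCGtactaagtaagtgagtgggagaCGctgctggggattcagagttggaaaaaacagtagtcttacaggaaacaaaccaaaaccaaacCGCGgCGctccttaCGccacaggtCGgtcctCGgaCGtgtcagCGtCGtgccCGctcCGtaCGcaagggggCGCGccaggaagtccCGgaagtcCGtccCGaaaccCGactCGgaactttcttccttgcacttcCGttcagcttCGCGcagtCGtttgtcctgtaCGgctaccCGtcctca
Sp1: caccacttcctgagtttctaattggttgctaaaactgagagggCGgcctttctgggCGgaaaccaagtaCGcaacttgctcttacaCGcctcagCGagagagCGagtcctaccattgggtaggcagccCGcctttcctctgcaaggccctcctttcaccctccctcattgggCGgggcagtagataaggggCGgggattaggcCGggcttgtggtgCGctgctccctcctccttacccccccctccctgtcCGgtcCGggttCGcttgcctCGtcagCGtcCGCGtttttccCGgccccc
Tmem39a: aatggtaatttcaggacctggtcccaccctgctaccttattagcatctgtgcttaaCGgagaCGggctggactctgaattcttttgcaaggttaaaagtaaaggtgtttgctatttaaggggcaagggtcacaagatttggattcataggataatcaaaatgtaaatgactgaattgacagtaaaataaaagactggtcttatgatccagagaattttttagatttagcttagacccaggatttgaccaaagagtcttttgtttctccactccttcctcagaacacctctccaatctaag

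Across the set, 39 of the 50 genes matched a promoter in the table. Their median was 21 CpG sites in 300 bases (range 1 to 41), against 22 in the 4468 matched genes that the rule could take and 7 in all 27025 promoters. An observed to expected CpG ratio of at least 0.6 was found in 27 of the 39 (69.2%), in 80.3% of the genes the rule could take and in 36.5% of all. The letters TATAAA, searched on both strands, were found in 3 promoters, those of Nek3, Gm16244 and Pigh (7.69%, against 5.64% and 14.2%). CCAAT, searched in the same way, was found in 12 (30.8%, against 39.3% and 38.0%). The median observed to expected CpG ratio was 0.714, against 0.809 in the genes the rule could take and 0.389 in all. The number of CpG sites was thus near that of the genes the rule could take and high beside the table as a whole. The CpG ratio was lower than in the genes the rule could take, and CCAAT less frequent. These differences were not tested. Nek3, with 1 CpG site, and Tmem39a, with 2, were at the low end. The 11 genes without a match are 5830418P13Rik, Arhgap10, Bace1, Gm20696, Gm2962, Hscb, Ncbp2, Pak2, Rpp21, Rrad and Tspo.

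Other members also lay near one another. Of the 50 genes, 16 lay within 1 Mb of another member, in 6 groups, and within each of the 6 groups all members kept the paternal column. The 16 are 32.0% of the members. By the same measure, 46 of the 192 other monoallelic genes of Abl.1 lay within 1 Mb of another of them. In the reverse set, 29 of 117 genes (24.8%) lay within 1 Mb of another gene of that set. Nearness to a member is a different measure. It held for 449 of 5597 eligible genes outside the set (8.02%) and for 19 of the 192 other monoallelic genes of Abl.1 (9.90%). None of these shares was tested. Besides the 3 groups above these are Arhgap10 with Rbmxl1 on chromosome 8, 5830418P13Rik with Tmem108 on chromosome 9, and Actr1a with Arl3 on chromosome 19. Within each of these 3 pairs a pair of other genes lay between the members, with AI in Abl.1 of 0.387 and 0.524, 0.754 and 0.143, and 0.392 and 0.566. Rbmxl1 is a retrocopy of an X-linked gene, Rbmx, so its reads are uncertain. Members were found on all 14 chromosomes that the rule allowed. Their share of eligible genes was 2.27% on chromosome 15 (7 of 309), 1.94% on chromosome 8 (9 of 463) and 1.84% on chromosome 16 (5 of 272), with 6 of 306 on chromosome 19, and 0.149% on chromosome 2 (1 of 670).

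Most neighbours of the members were biallelic in Abl.1. The 5 nearest genes on each side that met the count limit made up 393 genes outside the set. Of these, 333 (84.7%) were biallelic in Abl.1 and 15 (3.82%) monoallelic, against 87.8% and 4.29% of all genes the rule could take. The median AI of a member's neighbours in Abl.1 had a median of 0.468 over members (range 0.216 to 0.571), and lay outside 0.3 to 0.7 for 3 members, Ncbp2, Pak2 and Pigx, whose neighbours include one another. Of the 50 members, 24 had no monoallelic gene among their neighbours and 26 had at least 1, of the same column in 24. Both directly adjacent genes were biallelic for 27 members. Over the 14 chromosomes, the median AI of a chromosome lay from 0.490 to 0.516 in Abl.1. In Abl.2 it was 0.464 on chromosome 5 and from 0.493 to 0.512 on the others. A chromosome's median does not show whether its segments are balanced.

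The members with the most Abl.1 reads include parts of organelle and motor complexes. Bloc1s2, a subunit of the BLOC-1 complex of lysosome-related organelles, had 321 and 4250 maternal and paternal counts in Abl.1 replicate 1 and 285 and 3835 in replicate 2, against 4393 and 3617 and then 4800 and 3920 in Abl.2. Actr1a, the actin-related protein of dynactin, had 217 and 2839 and then 453 and 3963 in Abl.1, and 1792 and 1792 and then 2187 and 1900 in Abl.2. In Abl.1 replicate 2 the AI of Actr1a was 0.103, on the other side of the limit from replicate 1 at 0.0710. Both genes had over 200 maternal counts in each Abl.1 library.
Spast, the microtubule-severing enzyme spastin, had 38 and 668 and then 58 and 866 in Abl.1, and 659 and 540 and then 658 and 466 in Abl.2. Rpp21, a protein subunit of RNase P, had 4 and 909 and then 0 and 479 in Abl.1, and 441 and 515 and then 434 and 391 in Abl.2. Arl3, a small GTPase of the cilium, had 0 and 372 and then 0 and 180 in Abl.1, and 70 and 106 and then 74 and 84 in Abl.2. All 3 were mainly paternal in both Abl.1 libraries and mixed in both Abl.2 libraries.

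Maternal-column genes gave the mirror image. Tspo, an outer mitochondrial membrane protein, had 1839 and 22 maternal and paternal counts and then 1526 and 15 in Abl.1, and 1419 and 1121 and then 1483 and 1068 in Abl.2. Bphl, a serine hydrolase, had 340 and 0 and then 461 and 3 in Abl.1, and 480 and 438 and then 455 and 427 in Abl.2. Casd1, the sialic acid O-acetyltransferase, had 133 and 0 and then 125 and 0 in Abl.1, and 195 and 187 and then 170 and 212 in Abl.2. In these 3 genes the paternal allele was nearly absent from Abl.1 alone.
Abcc4, an efflux transporter of organic anions and nucleotides, had 174 and 1 and then 241 and 0 in Abl.1, and 358 and 442 and then 403 and 407 in Abl.2. 2310022B05Rik had 690 and 15 and then 1040 and 63 in Abl.1, and 606 and 569 and then 765 and 717 in Abl.2. 2900026A02Rik had 573 and 82 and then 658 and 32 in Abl.1, and 1107 and 1248 and then 1265 and 1417 in Abl.2. For 2900026A02Rik, Abl.1 replicate 1 alone, at an AI of 0.875, lay inside the limit of 0.9.

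Values of single libraries are a description, because the rule pooled these same libraries and their agreement with its limits follows largely from the choice. Both Abl.1 libraries were past the limit in 41 of the 50 genes and both Abl.2 libraries within 0.3 to 0.7 in 46. The AI of the 2 Abl.1 libraries differed by a median of 0.0061 and by at most 0.254, in Gm20696, whose annotated span overlaps those of Foxp1 and Eif4e3, both biallelic in Abl.1 with AI of 0.573 and 0.553. The 2 Abl.2 libraries differed by a median of 0.0447 and by at most 0.287, in Gm16244, which lies antisense to Hps1. The second run of Abl.2 put 49 of the 50 pooled values within 0.3 to 0.7, with a median difference from the first run of 0.0266. Both single libraries of the second run lay within that range in only 40 genes. The exception among the pooled values was Nek3, a NIMA-related kinase gene. It had 386 and 0 and then 178 and 14 counts in Abl.1, 100 and 58 and then 61 and 30 in the first run of Abl.2, and 179 and 39 and then 122 and 13 in the second run. With intervals widened by QCC, the whole interval lay past the limit in Abl.1 for 26 genes and within 0.3 to 0.7 in Abl.2 for 38, and the intervals of the clones overlapped for 1 gene, Camk1. At the edge of the rule stood Gsdme at an AI of 0.0983 and Yjefn3 at 0.904, just inside, and Atp6v1g2 at 0.103 and Aars at 0.113, just outside. By annotated span, introns included, 26 of the 50 genes overlap another gene, 22 of them on the opposite strand. The authors left out exon regions shared by several genes, but strand was not stated for the counting. Whether reads of such pairs mix was not tested. Gm2962 is a processed pseudogene within Fcrla, and its reads are uncertain.

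Few genes with known monoallelic modes met the limits of the rule, too few to read anything from their absence. Of 29 imprinted genes in the table, 2 met the limits of the rule and 0 were members, and of 2171 genes of families known for allelic exclusion or random monoallelic expression, 16 met the limits and 0 were members. Further lists were made by the start of the symbol and are not complete for their class. On these, 0 of 54 eligible surface antigens and receptors were members, 3 of 232 transporters, channels and other membrane proteins (1.29%: Abcc4, Tmem108 and Tmem39a), 1 of 108 small GTPase regulators (0.926%: Arhgap10) and 2 of 132 kinases and phosphatases (1.52%: Camk1 and Camk2d). The last list does not hold the starts of Pak2, Nek3 and Csnk1e, which are also kinases. These shares stand beside 0.885% for all eligible genes and were not tested. The rest of the set is mixed in role, and holds Traf5, an adaptor of TNF receptors, Hscb, a co-chaperone of iron-sulfur cluster assembly, Pigh, another enzyme subunit of GPI anchor synthesis, Fbxo4, an F-box protein, Rrad, a small GTPase, Pou6f1, a transcription factor, and Csnk1e, a casein kinase. Of the 50, 47 are annotated as protein coding.

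The level of the kept allele was compared between the clones as well. Allelic CPM, scaled by TMM (edgeR's correction for differences in composition between libraries), was taken gene by gene. The kept allele was higher in Abl.1 than in Abl.2 in 32 of the 50 genes, 22 of them at least 2-fold, and lower in 18, 10 of them at least 2-fold. Its log2 ratio of Abl.1 to Abl.2 had a median of 0.74 (1.67-fold) and a range of -5.17 to 3.31. The low allele was lower in Abl.1 in 50 of 50, which the rule all but fixes. A higher kept allele in Abl.1 also makes the AI more extreme there, so the choice of genes bears on these values.
Examples are given for genes with a low allele at or near 0. For Ncbp2 the paternal allele averaged 80.4 CPM in Abl.1 and 26.9 in Abl.2, a ratio of 2.99. For Aaas it averaged 142.8 and 65.1, a ratio of 2.19, and for Tmem39a 47.6 and 24.9, a ratio of 1.91. For Casd1, by contrast, the maternal allele averaged 7.14 and 7.44, a ratio of 0.960.

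**Figure D3:**
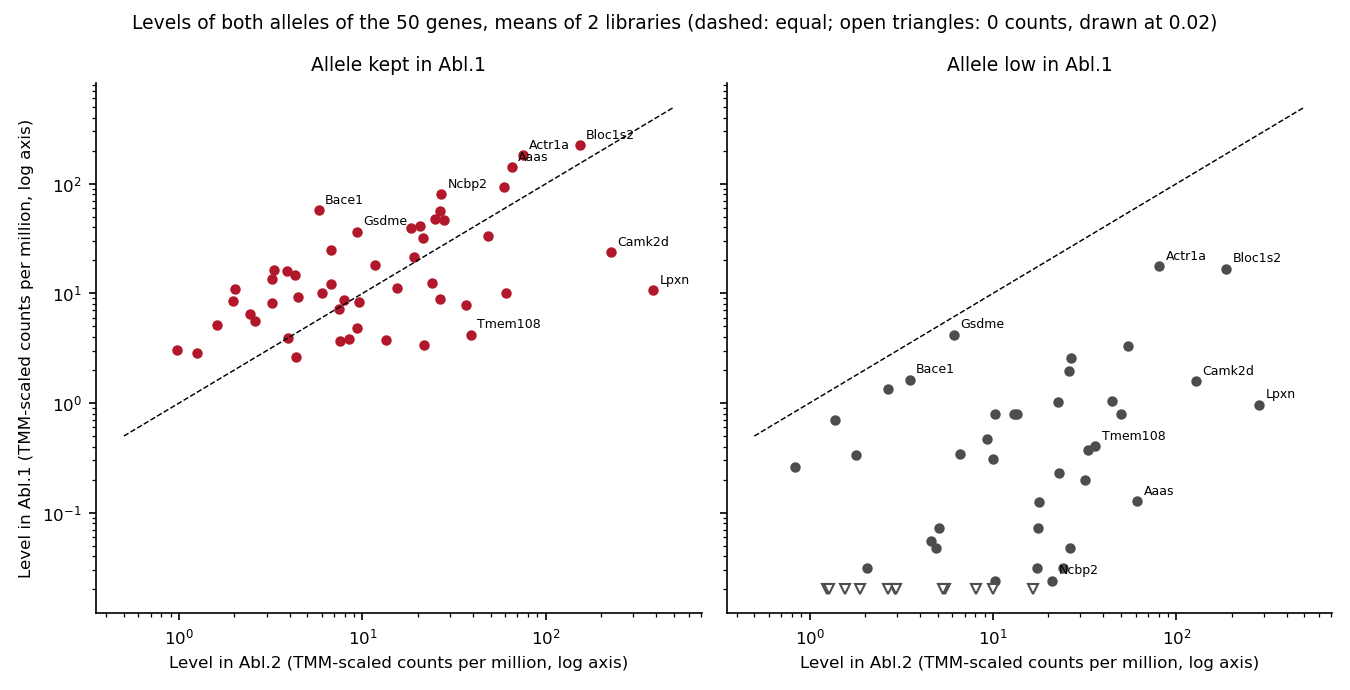
Level of the kept and of the low allele of the 50 genes in Abl.2 (horizontal) against Abl.1 (vertical), in TMM-scaled CPM, mean of 2 libraries, on log axes, with 0 counts drawn at 0.02. The kept allele scatters on both sides of the diagonal, higher in Abl.1 for 32 genes and lower for 18, and the low allele lies under it for all 50.

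Total allelic counts of the members differed between the clones in both directions. In edgeR's quasi-likelihood test with Benjamini-Hochberg adjustment, 28 of the 50 genes were called, beside 46.4% of all 12492 genes tested. Of these, 8 were higher in Abl.1 (24.6% of all genes) and 20 lower (21.8%). The rule used the same libraries and counts, so nothing is read from these numbers. The median log2 ratio of Abl.1 to Abl.2 was -0.21 over the 50 genes and -0.01 over all. With scaling by library total alone these medians became -0.56 and -0.36. Then 3 members were called higher and 22 lower, beside 2281 and 3826 of all 12492 genes. The balance of higher and lower calls thus depends on the scaling.
Lpxn, the adaptor protein leupaxin, stood lowest. Its total was 9.59 and 13.8 CPM in Abl.1 and 677 and 661 in Abl.2, a log2 ratio of -5.83 (SE 0.27). Its allelic counts were 11 and 143 and then 26 and 262 in Abl.1, and 6933 and 9424 and then 6997 and 9517 in Abl.2, so that both alleles were far lower in Abl.1 and the maternal one the more so. Tmem108 followed, with 4.61 and 4.61 against 75.7 and 74.8 and a log2 ratio of -4.03 (SE 0.20), and then Camk2d, a calcium/calmodulin-dependent kinase, with 22.5 and 28.5 against 339 and 372 and -3.80 (SE 0.22).
At the other end stood Bace1, the beta-secretase that cleaves the amyloid precursor protein, with 61.1 and 56.3 in Abl.1 and 7.86 and 10.7 in Abl.2, a log2 ratio of 2.66 (SE 0.24). Its allelic counts were 30 and 952 and then 29 and 1144 in Abl.1, and 71 and 119 and then 102 and 165 in Abl.2, and its paternal allele was 9.90-fold higher in Abl.1. Gm16244 followed with 12.3 and 9.60 against 4.22 and 2.36 (log2 ratio 1.73, SE 0.40), and Nek3 with a log2 ratio of 1.70 (SE 0.54).

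Kidney served to ask whether the alleles of these genes are unequal outside the clones, and these libraries are independent of the rule. Most members were biallelic in kidney. With at least 10 counts in each library, 39 genes could be tested in the NEBNext 100 ng libraries, 44 in the SMARTseq 10 ng and 41 in the SMARTseq 100 pg libraries, and 45 in at least 1 of these. Their median AI was 0.489, 0.516 and 0.491. Of them, 33, 37 and 36 lay within 0.3 to 0.7, and 30, 34 and 31 within 0.4 to 0.6. The share of all genes in these ranges was not computed, so nothing particular to the members is read from these counts. Only Gm2962 was monoallelic by the limits used for Abl.1, in the NEBNext libraries, and 0 genes were so in the other experiments. The 5 genes below the count limit in every experiment were 5830418P13Rik, Gm16244, Gm20696, Lpxn and Tmem108.

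The AI of each gene was tested against 0.5 with a two-sided proportional test on counts divided by the squared QCC, with Bonferroni adjustment over all genes tested. In the NEBNext libraries 6 of 39 members were called, beside 18.4% of all genes. In the SMARTseq 10 ng libraries 7 of 44 were called, beside 24.3%, and in the SMARTseq 100 pg libraries 2 of 41, beside 14.3%. The members' shares were thus not above those of all genes, and the differences were not tested. Without the counts of NEBNext replicate 1 the number there was again 6, but the QCC was still the mean over all pairs, including those of replicate 1. In all, this test called 8 genes in at least 1 experiment and 2 in all 3, Bloc1s2 and 2900026A02Rik. The direction followed that in Abl.1 for 3 of the 6, 3 of the 7 and 0 of the 2.

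Of the genes called, Bloc1s2 lay toward the maternal column in kidney, opposite to its paternal AI of 0.0697 in Abl.1. Its lowest, median and highest library AI were 0.758, 0.839 and 0.925 in NEBNext, 0.740, 0.775 and 0.842 in SMARTseq 10 ng and 0.668, 0.774 and 0.787 in SMARTseq 100 pg. All 18 libraries were above 0.5, and the adjusted p of the proportional test was 1.78e-07, 2.43e-42 and 5.12e-09.
2900026A02Rik, maternal in Abl.1, lay toward the paternal column in kidney. Its library AI was 0.308, 0.392 and 0.413 in NEBNext, 0.173, 0.268 and 0.306 in SMARTseq 10 ng and 0.101, 0.182 and 0.360 in SMARTseq 100 pg, in the same order. All 18 libraries were under 0.5, with an adjusted p of 1.57e-08, 1.96e-12 and 4.50e-05.
Nek3, maternal in Abl.1, was maternal in kidney as well, with 0.688, 0.853 and 0.979 in NEBNext and 0.833, 0.880 and 0.977 in SMARTseq 10 ng (adjusted p 4.58e-06 and 5.12e-11). In SMARTseq 100 pg its libraries ran from 0.133 to 0.949 and it was not called. Yjefn3, also maternal in Abl.1, was called by the proportional test in SMARTseq 10 ng, at 0.759, 0.810 and 0.947 (adjusted p 0.000347). In NEBNext its libraries ran from 0.594 to 0.929, with no call by that test but one by edgeR (adjusted p = 0.00163 by edgeR), and edgeR did not call its difference between these experiments (adjusted p = 0.69).
Plscr4, a phospholipid scramblase, was called maternal in NEBNext at a pooled AI of 0.709 and in SMARTseq 10 ng at 0.651, and was paternal in Abl.1. Gm2962 was called paternal in the same experiments at 0.0580 and 0.247, as in Abl.1. Arhgap10, paternal in Abl.1, was called paternal in NEBNext (0.384), and Abcc4, maternal in Abl.1, was called paternal in SMARTseq 10 ng (0.391). These were their only calls by the proportional test. edgeR called Arhgap10 also in SMARTseq 10 ng and Abcc4 also in NEBNext (adjusted p of edgeR 0.00503 and 0.00196).

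Of the members without a call by the proportional test, Bphl had the most kidney counts and was among the most precisely measured. Its AI was 0.484 ± 0.0249 (SD, n = 6 libraries) in NEBNext, 0.482 ± 0.00549 in SMARTseq 10 ng and 0.489 ± 0.0224 in SMARTseq 100 pg. Tspo had 0.542 ± 0.0227, 0.532 ± 0.0141 and 0.514 ± 0.0169, in the same order. The proportional test called neither gene in any experiment, while edgeR's test of the alleles called both in SMARTseq 10 ng (adjusted p of edgeR 0.000577 and 0.000589). Actr1a had 0.490 ± 0.0258, 0.517 ± 0.0246 and 0.534 ± 0.0601, and 2310022B05Rik 0.460 ± 0.0263, 0.475 ± 0.0398 and 0.476 ± 0.0723. Arl3 had 0.421 ± 0.0659, 0.504 ± 0.0574 and 0.488 ± 0.0370. These 5 genes were picked for having no call in SMARTseq 10 ng, so an AI near 0.5 there follows largely from the choice. Their means, given as a description, lay between 0.421 and 0.542 in kidney.
The proportional test called none of the members of the runs on chromosomes 15 and 16 in any kidney experiment where they could be tested. Pooled AI in SMARTseq 10 ng was 0.502 for Ncbp2 (QCC-corrected 95% interval 0.463 to 0.542), 0.516 for Pak2 (0.449 to 0.583), 0.4 for Pigx (0.306 to 0.502) and 0.523 for Cep19 (0.444 to 0.6) on chromosome 16. It was 0.533 for Myg1 (0.476 to 0.588), 0.512 for Aaas (0.422 to 0.602) and 0.714 for Sp1 (0.576 to 0.822) on chromosome 15. Sp1 rested on 105 counts, and edgeR called it in SMARTseq 10 ng (log2 ratio of maternal to paternal 1.33, SE 0.39, adjusted p of edgeR 0.00764), and Ncbp2 in NEBNext. Tmem39a had 0.528 (0.471 to 0.584).

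**Figure D4:**
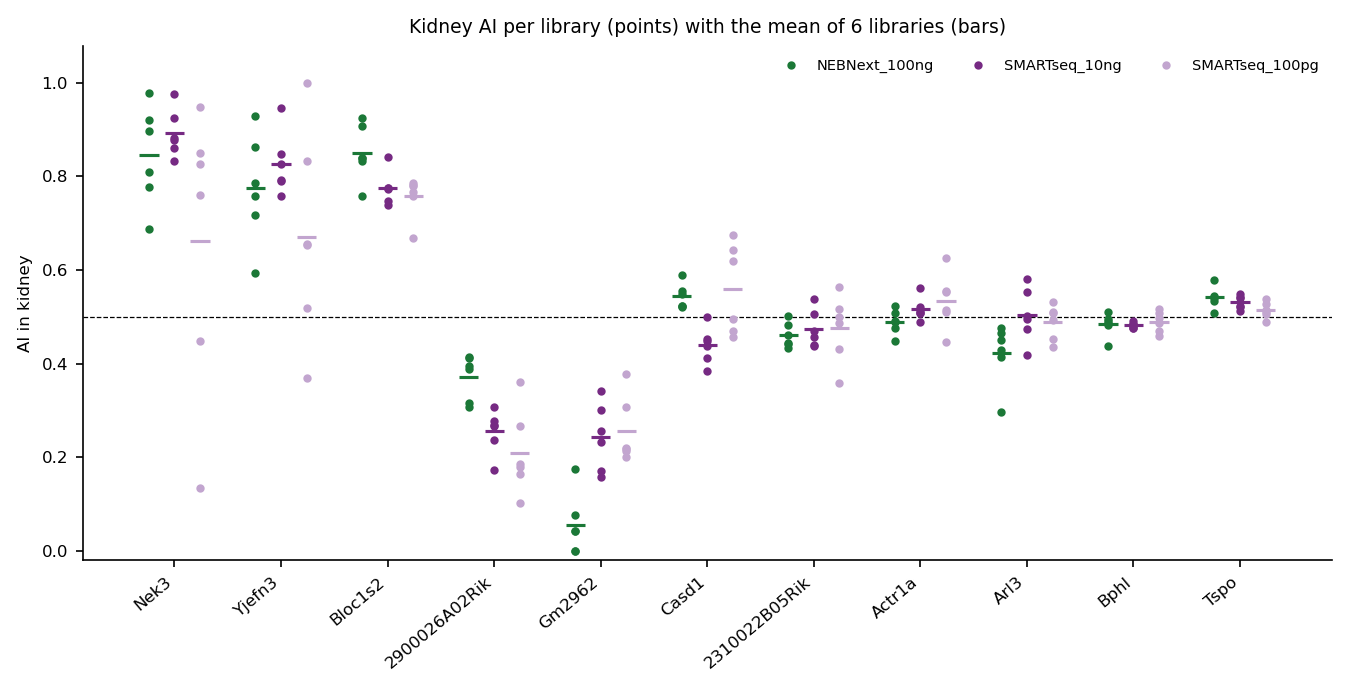
AI (0 to 1) of 11 members in kidney, with 1 point per library, bars at the mean, and the NEBNext 100 ng, SMARTseq 10 ng and SMARTseq 100 pg experiments side by side (6 libraries each). Bloc1s2 lies above 0.5 and 2900026A02Rik under it in all 18 libraries, while Bphl, Tspo and Actr1a lie around 0.5.

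The kidney AI of the members was also compared between experiments. Between the NEBNext and SMARTseq 10 ng libraries, edgeR's quasi-likelihood test of the interaction of allele and experiment called 3 of 38 members, beside 10.6% of all 10127 genes. Kit and input amount differ together here and cannot be told apart. For Gm2962 the pooled AI went from 0.0580 to 0.247, a log2 odds ratio of 2.30 (SE 0.61, adjusted p = 0.0110 by edgeR). For 2900026A02Rik it went from 0.373 to 0.253, with -0.80 (SE 0.20, adjusted p = 0.00592 by edgeR). For Casd1 it went from 0.544 to 0.441, with -0.60 (SE 0.19, adjusted p = 0.0339 by edgeR), from 0.522 to 0.590 over the NEBNext libraries and from 0.384 to 0.5 over the SMARTseq ones. The libraries of the 2 experiments did not overlap for 2900026A02Rik and Casd1, and did for Gm2962. Without NEBNext replicate 1 the count was again 3, beside 1089 of all 10193 genes. A QCC-corrected two-sample proportional test with Bonferroni adjustment called 0 of the 38, beside 428 of all 10127 genes. The call of Casd1 was lost with DESeq2 (adjusted p = 0.0758) and without any 1 of NEBNext replicates 3, 5 and 6 or SMARTseq 10 ng replicates 1, 2, 3, 5 and 6.
Between 10 ng and 100 pg of input with the same kit, edgeR called 0 of 41 members, beside 0.659% of all 10020 genes. The lowest adjusted p among members was 0.426 in edgeR, and 2 members had an unadjusted p under 0.05. DESeq2 and limma also called 0 members, beside 102 and 26 of all 10020 genes.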

How the data were processed

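RNA-seq allelic counts of 24 libraries were used. According to the study's methods, the authors used STAR (2.5.4a per the labels) to align reads to a GRCm38 pseudogenome per strain, kept unique alignments, took allele coverage of SNPs from samtools mpileup, and added it up over a gene's exons outside regions shared by several genes. The deposited counts are whole numbers per allele, gene and library, without normalization, and were used as deposited. The authors' AI tables were not used.

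QCC and the corrected proportional tests followed the study's methods (bins of at least 40 genes). edgeR 4.0.16 was the count test, with DESeq2 1.42.0 and limma 3.58.1 as alternatives, in R 4.3.3, and Python 3.11.15 with scipy 1.17.1 was used otherwise. Genes needed 10 counts in each kidney library, and edgeR's filterByExpr was applied to totals. Thresholds were 0.05. Intervals are 95% Wilson intervals on counts divided by the squared QCC, so they take in the spread between replicate libraries as well. The limit that a count of 0 allows takes 3 counts and covers counting error only. Reads carry no molecular identifiers.

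Genes described in full were those with the most Abl.1 counts (10), the largest AI difference at 500 or more counts (5), the strongest kidney calls and best covered genes without one (5 each), the extremes of total ratio (3 each way), those at the limits, and those differing between kidney experiments. Others were added for their position or class after their values were seen. The members and all lists were chosen with earlier results of these data known. The procedures were tested on simulated data. Promoters are RefSeq's.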

Additional observations from a re-analysis of the deposited data

Results flagged for a closer look

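In kidney, 4 of 60 sets of 6 libraries (members described in full, in each experiment) held 1 library far from the other 5, and chance alone gives about 1 in 20. Arl3 had an AI of 0.295 in NEBNext replicate 1 over 325 counts, against 0.413 to 0.475 in the others, and that library also stood apart in QCC. Bace1 had 0.399 in SMARTseq 10 ng replicate 1 over 263 counts, against 0.452 to 0.476. Bloc1s2 had 0.842 in SMARTseq 10 ng replicate 3 over 234 counts, against 0.740 to 0.776, and 0.668 in SMARTseq 100 pg replicate 4 over 232 counts, against 0.759 to 0.787. Among these genes, the call of Bloc1s2 in both SMARTseq experiments is given above for all libraries. The counts of called members were 7 and 2 also without any 1 library, at the QCC of all libraries.

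The AI of 3 members differed between the NEBNext and SMARTseq 10 ng libraries of the same kidney RNA in edgeR's test. The log2 odds ratio was 2.30 for Gm2962, -0.80 for 2900026A02Rik and -0.60 for Casd1. Over the alternatives run, the adjusted p of edgeR, DESeq2 or limma was 0.00279 to 0.0301 for Gm2962 (called in 17 of 17), 0.00205 to 0.0281 for 2900026A02Rik (18 of 18) and 0.0106 to 0.114 for Casd1 (7 of 18).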

How the results depend on the processing

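Of 100 alternatives, 83 kept the value close (counts within 1.5 times), 17 moved it and 0 reversed a direction. Only the median log2 ratio of totals could reverse, as the other results are counts. Counts of 0 that stayed at 0 are among those kept close. The set held 31 genes with Abl.1 limits of 0.05 and 0.95 and 21 when the whole interval had to lie past the limits, and 38 to 47 when 1 library was left out. For kidney bias in the NEBNext, SMARTseq 10 ng and SMARTseq 100 pg libraries, the counts of called members were 13, 13 and 7 without QCC (beside 35.1%, 35.1% and 40.3% of all genes), 14, 18 and 6 with Benjamini-Hochberg adjustment (36.7%, 45.2% and 29.8%) and 13, 18 and 5 with edgeR (34.5%, 44.0% and 25.8%). They were 6 to 6, 7 to 7 and 2 to 2 with a library left out, at the QCC of all libraries. For the difference between NEBNext and SMARTseq 10 ng, the two-sample proportional test called 0, beside 428 of all genes. Leaving out a library gave 2 to 4, beside 925 to 1089 of all genes. For the difference between inputs it gave 0 to 0, beside 30 to 66 of all genes. The median log2 ratio of totals was -0.154 with DESeq2 and -0.557 with library totals. It ran from -0.466 (without Abl.1 replicate 1) to -0.196 with a library left out, with -0.324 without Abl.2 replicate 2 and -0.275 without Abl.1 replicate 2. Over the alternatives that kept 2 libraries per clone, the number of totals called ran from 25 to 29, beside 5673 to 6107 of all genes. The cause of these shifts was not tested, except that stricter limits leave fewer genes in the set.

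The replicate numbers did not pair the libraries (correlations of same-numbered kidney libraries -0.0201 to 0.0174, with the own number best in 1 of 6 and 2 of 6 cases, and 0.122 for the clones' totals). With a replicate block, 4 members differed between kits, beside 984 of all 10127 genes, and 0 between inputs, beside 28 of all 10020. The median log2 ratio of totals was then -0.214, and 29 totals were called, beside 5673 of all 12492 genes. Casd1 was then not called (adjusted p of edgeR 0.0620).

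Depth limits the set most at its low end, where 101 counts in Abl.1 leave an interval of 0.00296 to 0.240 for Sp1. Kidney values rest on 1 RNA preparation, and the clone values on 1 line each.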
